A study of Arabidopsis thaliana with 6 samples.

Results

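NSRa (AT1G76940) and NSRb (AT1G21320) encode the nuclear speckle RNA-binding proteins of Arabidopsis thaliana, and the transcripts of these 2 genes were followed through an RNA immunoprecipitation experiment in which NSRa was the precipitated protein. They were chosen by their gene identifiers among 39351 features of the deposited table. All plants were of a single genotype, an nsra mutant background that carried pNSRa:NSRa-HA, that is, NSRa with an HA epitope tag driven by its own promoter. NSRb was endogenous. All plants received the synthetic auxin NAA for 24 h, at 100 nM or 1 µM depending on the protocol text, and the age of the plantlets is given as 10, 14 or 15 days. All were irradiated 3 times with UV, which crosslinks proteins to the RNA they touch. The 3 groups of 2 libraries differ in the RNA taken: lysate before precipitation (Input), the anti-HA precipitate (RIP) and the precipitate with IgG (Mock). The precipitation was done in duplicate, and nothing says that the duplicates came from separate cultures, so p-values measure the spread between these libraries, which may be technical.

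NSRs are proteins of nuclear speckles, the compartments where splicing factors gather. They carry an RNA recognition motif and act on alternative splicing in response to auxin, and the long non-coding RNA ASCO competes with their mRNA targets for binding. Many plant splicing factors bind the transcripts of their own genes and alter their splicing, so the tagged protein's own mRNA and that of its paralog are of interest in such a precipitate. The table gives 1 value per gene, so RNA of the transgene and any residual RNA of the mutant allele could not be told apart at NSRa, and neither could isoforms or spliced and unspliced RNA.

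The depth of the groups was very uneven. The recovered library totals were 27494964 and 25274634 reads in Input, 1599136 and 977230 in RIP, and 197923 and 154149 in Mock. A single read was thus worth 0.0364 and 0.0396 CPM (reads per 1000000 reads of the library) in Input, but 5.05 and 6.49 CPM in Mock. The Input RNA carried leaf transcripts (RBCS1A at 3545 and 3598 FPKM) and root transcripts (CASP1 at 12 and 11.2 FPKM, PHT1;1 at 24.2 and 21.1, MRN1 at 1.08 and 0.786). Of the flower genes, AP3 was at 0.12 and 0.0326 FPKM and PI at 1 and 1.18. Of the seed genes, OLEO1 was at 0 and 0.0871 FPKM and CRA1 at 0.117 and 0.0636, and CRA1 stood at 7.71 and 3.29 FPKM in RIP. FPKM is the number of fragments per kilobase of exon and 1000000 reads, the unit of the deposited values. The RIP and Mock libraries were less alike among themselves than the Input libraries. Over the 19997 features tested, the pooled SD of log2(FPKM + 1) between replicates was 0.0879 in Input, 0.931 in RIP and 1.73 in Mock.

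NSRa lies on chromosome 1 at 28902318 to 28904420 on the minus strand (TAIR10.1), with 3 RefSeq transcripts and 1506 bases of merged exons. NSRb lies on the same chromosome and strand at 7462327 to 7466164, with 5 transcripts and 2718 bases of merged exons. RefSeq coding lengths ran from 540 to 702 bases for NSRa and from 633 to 1266 bases for NSRb. To see whether reads of one gene could be counted at the other, exon sequences of the genes were compared at the read length of 75 bases. The most alike pair of windows is shown because it is where reads of the paralogs come closest, and capitals mark the bases that differ. Both lie in a coding exon of at least 1 transcript, NSRa at chr1:28903455-28903529 and NSRb at chr1:7463465-7463539, and are written on the minus strand.
NSRa: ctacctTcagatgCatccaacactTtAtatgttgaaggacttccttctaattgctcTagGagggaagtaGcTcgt
NSRb: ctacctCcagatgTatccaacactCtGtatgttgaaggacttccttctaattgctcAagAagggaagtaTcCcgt
These windows shared 67 bases and differed at 8, and 29 bases was the longest run common to the exons of both genes. A full-length read within an exon therefore matched only 1 of the 2 paralogs exactly.

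NSRa and NSRb differed in how far their reads were their own. Of the 1136 windows of 75 bases within NSRa exons, 0 occurred elsewhere in the genome. Of the 2348 windows within NSRb exons, 319 (13.6%) occurred a second time, on the same strand at 7468737 to 7469399 of chromosome 1. This second copy overlaps AT1G21326, which starts 2600 bases beyond the end of NSRb. The repeated stretch of NSRb spans 7464228 to 7464878 and falls in exons of 4 of its 5 transcripts. How reads with several positions were counted is not given in the sources used here, so the count of NSRb is uncertain to that extent.

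The first question was whether the mRNA of the tagged protein itself was recovered with it. NSRa stood at 11.4 and 12.1 FPKM in Input, 145 and 105 FPKM in RIP, and 181 and 60.3 FPKM in Mock. All 4 precipitates were above both Input libraries, and the Mock values lay on either side of the RIP values. The means were 11.7 ± 0.502 FPKM in Input, 125 ± 28 in RIP and 121 ± 85.5 in Mock (SD, n = 2 each). The RIP mean was thus 10.7 times the Input mean and the Mock mean 10.3 times, while RIP was 1.04 times Mock. NSRb showed another picture, with 0.201 and 0.175 FPKM in Input and 0 in each RIP and Mock library.

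**Figure D1:**
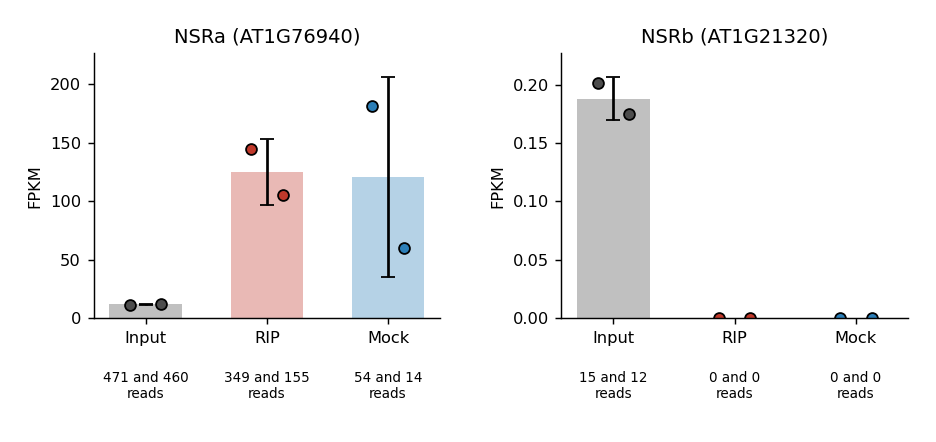
FPKM of NSRa and NSRb in each library, with the recovered reads written under each group. Points are libraries, bars the group means and whiskers 1 SD (n = 2). The 4 NSRa precipitates sit between 60.3 and 181 FPKM, above Input at 11.4 and 12.1, and NSRb is at 0 outside Input. The axes of the panels differ.

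Against Input, the log2 fold change of NSRa in RIP was 3.29 ± 0.663 (SE; 95% interval 1.45 to 5.14) on the log2(FPKM + 1) scale, with an adjusted p of 0.0371 from limma fitted to all 6 libraries. A feature was called with a log2 fold change past 2 and an adjusted p under 0.01, so 0 of the 1 member tested was called. Of the 19997 features, 296 (1.48%) were called higher and 1155 (5.78%) lower, and the median over all was -0.52. NSRa ranked at place 272 by fold change, within the top 1.36%. The call rested on which libraries gave the spread. With only the RIP and Input libraries in the limma fit the adjusted p was 0.00344, and it was 0.00353 and 0.00329 without Mock replicate 1 or Mock replicate 2, each past the threshold. It was 0.222 and 0.215 without an Input library and 0.102 and 0.0746 without a RIP library. The SD of NSRa on this scale was 0.323 in RIP and 0.0569 in Input, against 1.11 in Mock.

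The comparison with Mock sets the share of NSRa in the anti-HA precipitate beside its share in the IgG precipitate. FPKM is relative to the reads of each library, so it does not give the amount of RNA that each antibody recovered. The paper reports that RNA from the mock eluate was not detectable. RIP against Mock gave a log2 fold change of 0.24 ± 0.663 for NSRa (95% interval -1.61 to 2.08) with an adjusted p of 0.855 from limma, and the median over all features was 2.13. Here a feature was called from a log2 fold change of 1, and 34.3% of features were called higher and 0.180% lower, with 0 of the 1 member among them. By this fold change NSRa ranked at place 16811 of 19997, that is, at 84.1% from the top. For the 13460 features at 0 in both Mock libraries, this fold change is set by the RIP values alone. The median, the share called higher and the rank therefore depend on detection in Mock as well. The sign was set by 1 library: without Mock replicate 2 the log2 fold change was -0.55, and without Mock replicate 1 it was 1.02 with an adjusted p of 0.0422 in limma, each fit with a single Mock library assumed to vary like the others. The interval is wide enough to hold a 2-fold difference in either direction, so the test does not show that RIP and Mock were alike.

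Mock against Input, which sets the IgG precipitate beside the lysate, gave a log2 fold change of 3.05 ± 0.663 for NSRa (95% interval 1.21 to 4.90) with an adjusted p of 0.0184 from limma. Of all features, 0.715% were called higher and 41.0% lower in Mock, and the median was -2.70. The 13460 features at 0 in both Mock libraries are included. NSRa was not called, and it ranked at place 179, within the top 0.895%. The adjusted p from limma was 0.0641 with only Mock and Input in the fit, 0.102 and 0.0974 without an Input library, and 0.0571 and 0.0564 without a RIP library. Without Mock replicate 1 the log2 fold change was 2.27 (adjusted p 0.00556), and without Mock replicate 2 it was 3.84 (0.00149). These last fits passed the threshold, but they leave Mock with 1 library, which is then assumed to vary like the Input and RIP libraries. RIP and Mock were each compared with the same Input libraries, so these results share their controls.

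**Figure D2:**
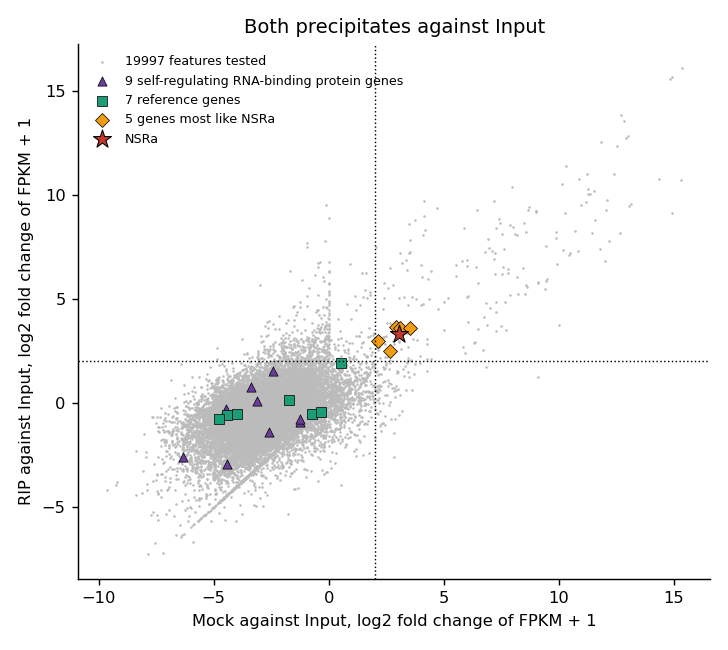
Log2 fold change of FPKM + 1 for RIP against Input (vertical) and Mock against Input (horizontal) over the 19997 features tested. Both axes use the same Input libraries, and dotted lines mark a log2 fold change of 2. NSRa lies at 3.05 and 3.29 among the features past both lines, while the 9 self-regulating RNA-binding protein genes lie at or below 1.52 on the vertical axis.

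The lowest of the 4 RIP and Mock values of NSRa was 4.99 times its highest Input value. All 4 precipitates exceeded both Input libraries for 331 of the features tested (1.66%). Detection in Mock limited that count, since 13460 features were at 0 in both Mock libraries and 1511 were above 0 in both. Of these 1511 the 331 made up 21.9%, and 115 of them, NSRa included, did so by at least as much as NSRa. Among 8678 features whose Input mean was within 2-fold of that of NSRa, 5998 (69.1%) were at 0 in both Mock libraries, and their median RIP to Input ratio was 0.763. In that group 27 features had a RIP to Input ratio at least that of NSRa, 24 had such a Mock to Input ratio and 19 had both, NSRa included each time. Mock calls against Input held 95 (32.1%) of the 296 features that RIP calls against Input held as higher. By level NSRa moved from percentile 53.9 and 55.9 of the features tested in Input to 97.5 and 96.8 in RIP and 98.6 and 93.7 in Mock. A value of 0 would rank at place 2433 and 5617 of 19997 in the Mock libraries. Any feature above 0 in Mock thus stood well above the middle there, and the Mock percentiles are not on the footing of those in Input.

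The reads behind these values were few in Mock. NSRa had 471 and 460 reads in Input, 349 and 155 in RIP, but 54 and 14 in Mock. As a share of the library this was 17.1 CPM (exact 95% binomial interval 15.6 to 18.7) and 18.2 CPM (16.6 to 19.9) in Input. In RIP it was 218 CPM (196 to 242) and 159 CPM (135 to 186), and in Mock 273 CPM (205 to 356) and 90.8 CPM (49.7 to 152). The intervals of the replicates overlapped in Input but not in RIP or in Mock. These intervals cover counting error only, and they treat each read as a separate molecule. The reads carry no molecular identifiers, so the number of molecules behind them is not known and the intervals can be too narrow.

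Pooled within groups, the NSRa share in RIP was 11.1 times that in Input (95% counting interval 9.93 to 12.4) and in Mock 10.9 times (8.43 to 14). RIP over Mock was 1.01 (0.785 to 1.32). These intervals also treat each read as a separate molecule and can be too narrow. The single libraries disagreed on the direction of that last ratio. RIP replicate 1 over Mock replicate 2 was 2.4 (1.41 to 4.44), whereas RIP replicate 2 over Mock replicate 1 was 0.581 (0.424 to 0.808). Against both Input libraries, the lowest ratio was 5.15 (2.8 to 8.68), in Mock replicate 2, and the highest 15.5 (11.5 to 20.4), in Mock replicate 1.

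**Figure D3:**
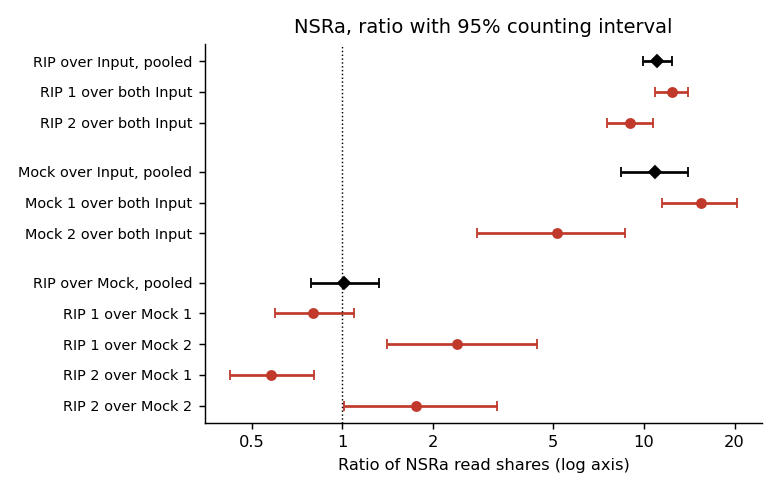
Ratio of NSRa read shares between groups or single libraries, on a log axis. Diamonds pool the libraries of a group, circles take single libraries, and whiskers are 95% counting intervals. All ratios to Input lie above 1, from 5.15 to 15.5, while the ratios of RIP to Mock lie on both sides of 1.

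The distribution of reads over genes differed between the libraries. In Mock replicate 1, 586 genes held 1 read, 15 held 4 to 5, and 471 held 28 to 39, so the reads of detected genes gathered in a narrow range well above a single read. In Mock replicate 2, 1193 genes held 1 read, 413 held 4 to 5 and 890 held 9 to 12. The median among genes with at least 4 reads was 33 and 12 reads in the Mock libraries, and the 54 and 14 reads of NSRa were 1.64 and 1.17 times that median. In RIP the medians were 34 and 21 reads, and NSRa stood at 10.3 and 7.38 times these. In Input NSRa stood at 1.14 and 1.2 times medians of 413 and 384. Of the 1758 and 3873 genes with at least 4 reads in Mock, 322 and 1661 had as many reads as NSRa or more, against 588 of 16202 and 771 of 14905 in RIP. The part of library amplification in the Mock values was not tested.

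**Figure D4:**
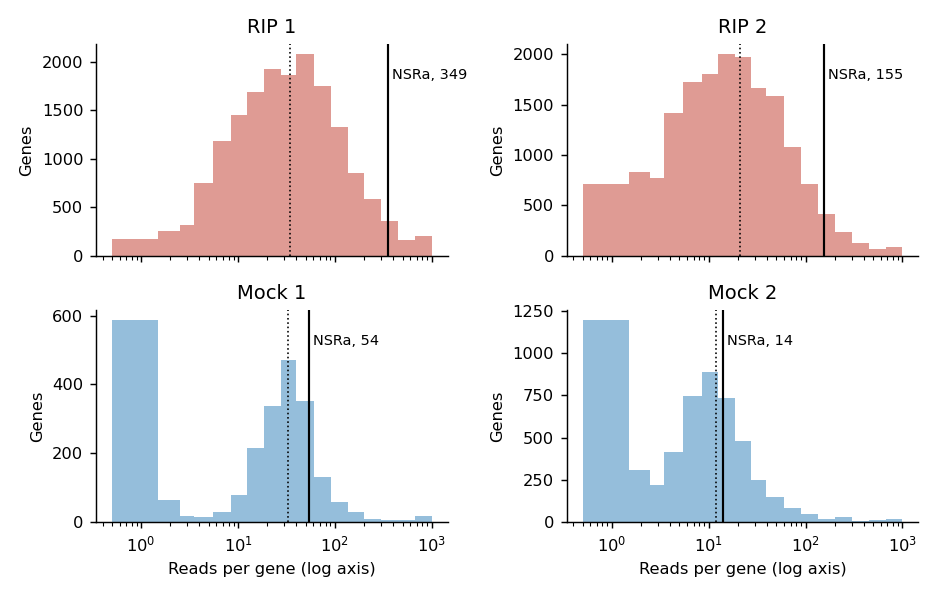
Number of genes by reads per gene (log axis) in the RIP and Mock libraries, with the last bin open upward. The solid line is NSRa, at 349, 155, 54 and 14 reads, and the dotted line the median of genes with at least 4 reads. In Mock replicate 1 the genes fall into a group at 1 read and a group around 33 reads, and NSRa lies in the second.

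For NSRb the question was whether the paralog's mRNA was recovered with NSRa. It had 15 and 12 reads in Input, or 0.546 CPM (exact 95% binomial interval 0.305 to 0.9) and 0.475 CPM (0.245 to 0.829), and 0 in all 4 precipitates. The gene did not reach 1 FPKM in any library and so was not among the features tested. At its Input share, 1.32 reads would be expected in both RIP libraries together and 0.18 in both Mock libraries. A count of 0 allows up to 3 reads per group, which is 1.16 CPM in RIP and 8.52 CPM in Mock. With the counting error of the 27 Input reads included, the 95% interval of the ratio to Input reached up to 3 in RIP and 21.9 in Mock. A depletion of NSRb was thus not detectable at this depth, nor was an enrichment below these limits. These limits also treat each read as a separate molecule and can be too low. Taken so, a rise of the size seen for NSRa would have exceeded the limit in RIP but not in Mock. If the reads come from fewer molecules, 0 reads in RIP would not exclude such a rise.

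AT1G21326, which carries the second copy of the repeated NSRb stretch, had 8 and 8 reads in Input, 0 and 3 in RIP, and 0 and 5 in Mock. Its FPKM values were 0.236 and 0.257 in Input, 0 and 2.49 in RIP, and 0 and 26.3 in Mock. These reads fell in RIP replicate 2 and Mock replicate 2, and whether any came from the stretch shared with NSRb was not tested. The gene was looked up after the repeat had been found.

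Per length of merged exons (1506 bases for NSRa and 2718 for NSRb), NSRa stood above NSRb in every library. The longest NSRb transcript has 2493 bases, so a ratio per transcript would depend on the isoform. The ratio of their FPKM was 56.7 and 69.2 in Input. With NSRb set to the floor of 3 reads per library, the ratio was at least 210 and 93.2 in RIP and at least 32.5 and 8.42 in Mock. In both RIP libraries the lower bound lay above both Input ratios, by 1.16 on the log2 scale on average. The Input ratios rest on 15 and 12 reads of NSRb, and their counting error is not part of this bound. The floor of 3 reads also treats each read as a separate molecule. In Mock the bounds lay below the Input ratios and give no order. A permutation test of the ratio was not made, as RIP holds bounds rather than values, and with 2 libraries against 2 an exact test cannot give a p under 0.333.

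Neither gene overlaps another annotated gene. The neighbours of NSRa are EXT4 (AT1G76930), an extensin of the cell wall, 5198 bases away, and PRAF1 (AT1G76950), a regulator of chromosome condensation family gene, 2021 bases away on the opposite strand. EXT4 stood at 181 and 182 FPKM in Input, 184 and 124 in RIP, and 105 and 62.8 in Mock, so that its Mock libraries lay below Input and its RIP libraries on both sides of it. PRAF1 stood at 8.04 and 8.36 FPKM in Input, 23.3 and 15.3 in RIP, and 0 and 1.59 in Mock. Its log2 fold change was 1.11 in RIP against Input (limma, adjusted p 0.27). In RIP against Mock it was 3.63 (limma, adjusted p 0.00866) and called higher, as were 34.3% of all features. PRAF1 had 0 and 1 reads in Mock. With only RIP and Mock in the limma fit its adjusted p was 0.0471, short of the threshold. The neighbours of NSRb, the long non-coding RNA gene AT1G05647 and AT1G21323, were at 0 in all libraries. An assembled antisense locus at each of the 2 genes was also listed at 0 throughout.

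The NSRa values were next set beside other RNA-binding protein genes known to act on their own transcripts. These were the glycine-rich proteins GRP7 and GRP8, the polypyrimidine tract-binding proteins PTB1 and PTB2, the SR-type splicing factors SR30, RS2Z33 and SCL33, and the flowering regulators FPA and FCA. These proteins carried no tag here. FPA is not a neutral member of the list, since the paper reports both of its RNA variants as enriched with tagged NSRa by RT-qPCR. Of the 9 genes, 0 were called in RIP against Input, with a median log2 fold change of -0.78 and values from -2.96 to 1.52, where 1.48% of features were called higher. At an unadjusted p under 0.05 in limma, FPA was higher and SR30 lower. SCL33, FPA and FCA, 3 of the 9, were called higher in RIP than in Mock, a share close to the 34.3% of all features, with a list median of 3.22 beside 2.13. All 3 had 0 reads in both Mock libraries, and with only RIP and Mock in the limma fit their adjusted p values were 0.0112, 0.0104 and 0.017, short of the threshold. In Mock against Input, SR30, SCL33, FPA and FCA, 4 of the 9, were called lower where 41.0% of all features were, and the median was -3.14 beside -2.70. These shares set the list apart from other features in neither comparison. With only Mock and Input in the limma fit, the adjusted p of SR30 was 0.0263, short of the threshold. SCL33, FPA and FCA stayed past it. RS2Z33 had the highest RIP to Input value, at 45 and 43.8 FPKM in Input, 134 and 124 in RIP, and 70.4 and 0 in Mock. Its Mock libraries thus differed from each other more than those of NSRa, with 24 and 0 reads. GRP7 was at 1292 and 1325 FPKM in Input, 502 and 965 in RIP, and 555 and 551 in Mock, with both precipitates below Input.

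Of 7 common reference genes, 0 were called in RIP against Input, and the list median of -0.52 was that of all features. ACT2, an actin, had the highest value of the 7, at 134 and 135 FPKM in Input, 518 and 508 in RIP, and 318 and 118 in Mock. Its log2 fold change in RIP against Input was 1.93 (limma, adjusted p 0.0922, and the only 1 of the 7 with an unadjusted p under 0.05), below that of NSRa. SAND and UBC21, 2 of the 7, were called higher in RIP than in Mock (34.3% of all features), with 0 reads in both Mock libraries, and with only these groups in the limma fit their adjusted p values were 0.0145 and 0.0192. PP2AA3, SAND and UBC21, 3 of the 7, were called lower in Mock than in Input (41.0% of all features). With only Mock and Input in the limma fit, the adjusted p of PP2AA3 was 0.0218, short of the threshold. SAND and UBC21 stayed past it. ASCO (AT1G67105), the long non-coding partner of NSRs, stood at 1.62 and 1.06 FPKM in Input, 13.5 and 2.6 in RIP, and 0 in both Mock libraries. It was carried by 17 and 2 reads in RIP. Its log2 fold changes of 1.64 against Input (limma, adjusted p 0.219) and 2.86 against Mock (limma, adjusted p 0.0398) were not called. By RT-qPCR the paper reports earlier known NSRa targets, ASCO among them, as enriched in the precipitate over Input.

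**Figure D5:**
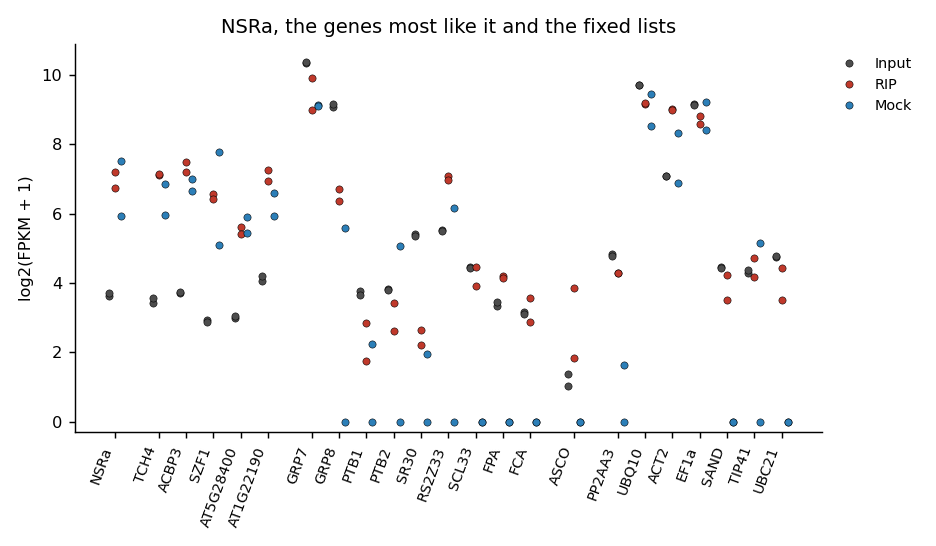
log2(FPKM + 1) of NSRa, the 5 genes most like it, the 9 self-regulating RNA-binding protein genes, ASCO and the 7 reference genes, with 1 point per library and points of equal value on top of each other. In NSRa and the 5 genes like it the RIP and Mock points lie above the Input points, whereas most listed genes have at least 1 Mock library at 0.

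The genes whose pattern was most like that of NSRa were sought among 8655 nuclear genes with an Input mean within 2-fold of its own. Likeness was the root mean square difference of log2(FPKM + 1) over the 6 libraries after centring each gene on its mean, and its median over these genes was 2.79. The closest was TCH4, a touch-induced xyloglucan endotransglucosylase of the cell wall, at 0.313. TCH4 stood at 9.81 and 10.8 FPKM in Input, 138 and 139 in RIP, and 114 and 61.2 in Mock, so its RIP libraries were closer to each other than those of NSRa. It was called higher in RIP against Input, with 3.63 (limma, adjusted p 0.00978), and in Mock against Input, with 2.91 (limma, adjusted p 0.00672). ACBP3, an acyl-CoA-binding protein, followed at 0.384 and was called in both comparisons as well. SZF1, a salt-inducible zinc finger protein, was at 0.386, with 218 and 33.3 FPKM in Mock, a wider spread than that of NSRa. AT5G28400 at 0.459 was called higher in Mock than in Input, and AT1G22190, an AP2-type transcription factor gene, at 0.511 in neither comparison. The calls changed with only the 2 groups compared in the limma fit. Each of these genes then passed the threshold in RIP against Input (adjusted p 0.00246 to 0.00295). None passed it in Mock against Input (adjusted p 0.0173 to 0.1). The genes were picked for their likeness over the same 6 libraries, so these calls describe the choice and test nothing further.

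For NSRb the same search held 1897 genes, of which 1457 were at 0 in all RIP and Mock libraries. The 5 closest, AT1G64010, AT4G04680, AT3G02670, AT1G30740 and AT5G50060, had 3 to 10 reads per Input library and 0 elsewhere. Their likeness of 0.000237 to 0.00428 goes with counts near 0 that most genes of this level share, and it sets none of them apart.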

How the data were processed

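The 6 libraries were depleted of rRNA, prepared with a stranded TruSeq kit and sequenced from 1 end for 75 bp. STAR alignment and strand-specific summarizeOverlaps counting were done by the authors. Their processing notes name TAIR10, and tool versions are not given in the sources used here. The deposited values are FPKM computed by the authors. Multiplied by merged exon length (TAIR10.1, RefSeq), they were whole multiples of 1 step per library for 99.1 to 99.3% of values above 0 (tolerance 0.01 read), which gave reads and library totals. In RIP and Mock, 968 features had no value. The 19997 features that reached 1 FPKM in 2 libraries or more were tested with limma 3.58.1 (R 4.3.3), with a mean-variance trend, on log2(FPKM + 1), with Benjamini-Hochberg adjustment, which understates changes of low features. The fit was also run on simulated reads at the depth of each library. These had the same spread beyond counting in every group, so that run does not bear on the unequal spread seen here. Thresholds follow the study's methods, with Mock against Input taking those of RIP against Input. Intervals of shares and ratios are exact binomial (scipy 1.17.1). Named genes were the members, their neighbours, the lists of RNA-binding and reference genes, ASCO, and the 5 genes most alike. A search for other related proteins was not run. The members and lists were chosen with earlier results of these data known.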

Additional observations from a re-analysis of the deposited data

How the results depend on the processing

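NSRa kept its direction in RIP against Input and in Mock against Input under every alternative run, with the log2 fold change between 3.06 and 4.62 and between 2.27 and 4.52. RIP against Input passed the threshold in a fit of only the 2 groups compared, at 3.29. Leaving out each library in turn gave 3.06 to 3.52 for RIP against Input and 2.27 to 3.84 for Mock against Input. For RIP against Mock it gave -0.55 to 1.02, and the sign turned without Mock replicate 2. With voom on the recovered reads the adjusted p of NSRa was 0.372 for RIP against Input and 0.0627 for Mock against Input. After quantile normalization the medians over features were -0.00, -0.17 and 0.12 for RIP against Input, RIP against Mock and Mock against Input, and NSRa, at 0.10 in RIP against Mock, lay above that median rather than below it.

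NSRb, at 0 outside Input, differed by -0.25 in both comparisons with Input. The value was -1.52 with a pseudocount of 0.1 and -0.22 with median-of-ratios scaling, and quantile normalization, voom, the block and the fit of 2 groups were not run for it. A limma p without the filter is not given, since the 4 precipitates are all at 0 and have no spread. The ratio of NSRa to NSRb rose by 1.16 on the log2 scale. This lower bound takes the Input reads of NSRb as exact and each read as a separate molecule. The ratio rose by 3.54 with a pseudocount of 1, and by 0.57 to 1.75 with 1 library left out.

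Counts of calls depended on the fit. For RIP against Input 38 features were called higher by voom and 56 to 599 with 1 library left out, beside 296. The features lower numbered 1972 with a pseudocount of 0.1, 298 with quantile normalization, 6 by voom and up to 2575 with 1 library left out, beside 1155. For RIP against Mock the higher calls were 228 with quantile normalization, 26 by voom, 0 in a limma fit of only these groups (8553 at an unadjusted p under 0.05) and 2577 to 9985 with 1 library left out, beside 6853. The lower calls were 1785, 1674, 0 (75 unadjusted) and 1 to 453, beside 36. For Mock against Input the higher calls were 62 to 425 with 1 library left out, beside 143, and the lower calls 574 with quantile normalization, 2571 by voom and 3490 to 10318 with 1 library left out, beside 8205.

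No pairing of the libraries by replicate number was seen, but the spread between replicates (pooled SD 0.0879 in Input, 0.931 in RIP and 1.73 in Mock) could hide one. Whether same-numbered libraries came from the same lysate is thus not settled. The correlation of deviations from the group means between same-numbered libraries was 0.00846 for RIP and Input, 0.0122 for RIP and Mock and -0.00166 for Mock and Input. With the replicate number as a block the log2 fold changes of NSRa were unchanged at 3.29, 0.24 and 3.05, with adjusted p values of 0.0744, 0.854 and 0.0317 from limma, and the ratio of NSRa to NSRb stayed at 1.16. The block lowered the calls higher in RIP than in Input to 152 and those lower in RIP than in Mock to 12.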
